A study of Arabidopsis thaliana with 12 samples.

Results

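The reciprocal F1 hybrids of the Arabidopsis thaliana accessions Col and C24 were compared with their C24 parent in rosette leaves, to describe which functions of the leaf transcriptome kept the C24 level and which left it. The comparison used 9 of the 12 libraries of the series, namely 6 hybrid libraries and 3 C24 libraries, chosen by genotype label and matched by time. ColxC24 is the F1 with Col as mother, C24xCol is the F1 with C24 as mother, and C24 and Col are inbred accessions. All plants were soil-grown under a day of 16 h light and 8 h dark and were 3 weeks old, before bolting. Leaves were harvested 0, 6 and 15 h after lights on, called zeitgeber times ZT0, ZT6 and ZT15. No genotype had more than 1 library per time, which leaves no replicates, and p-values rest on the residual of an additive fit of time and genotype. Where values are listed per genotype below, they run in the order ZT0, ZT6, ZT15.

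An F1 hybrid carries 1 genome copy from each parent, so a hybrid level can lie at the level of either parent, between them or outside them. Salicylic acid is the plant hormone of defence against biotrophic pathogens; it is made from chorismate through ICS1, acts through NPR1 and TGA factors, and induces pathogenesis-related genes. FLC, a repressor of flowering, and the glucosinolates, the mustard oil precursors of the Brassicaceae, are known to vary between accessions.

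The estimated depth of the 9 libraries was 23.1 to 26.1 M reads (M, 1e6), so that 1 read on 1 kb of transcript was worth 0.0383 to 0.04335 RPKM (reads per kilobase of transcript, scaled to the mapped reads). Leaf mesophyll markers (RBCS1A, LHCB1.3, CA1 and RCA) were at 3570 to 36762 RPKM in all 9 libraries. Root markers reached at most 0.224 RPKM, seed markers 0.183 and flower markers 1.32. The summed level of the 5 flower markers was 1.46 to 2.74 RPKM in hybrids and 1.03 to 1.76 RPKM in C24, and the part of these traces in the results was not tested. Among single libraries left out, the C24xCol library of ZT6 changed the count of calls most. With 1 library per cross and time, cross and library cannot be told apart there. Without it, 1210 loci (7.11% of those tested) in place of 336 were called between hybrids and C24. Many, but not all, of the results that turn on it are given both ways.

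Most loci stayed near the C24 level in the hybrids. Of 17028 loci that averaged 1 RPKM or more, 11066 (65.0%) were kept at the C24 level, meaning that they were not called and that the 95% limma interval of their difference lay within 1.5-fold in both directions. This difference is fitted over all times together, so a kept locus can depart from C24 at a single time. ACO4 of the ethylene list, for example, was kept (0.19) with a difference of 0.71 at ZT6. The test called 336 loci (1.97% of those tested) at an adjusted p under 0.05 (limma, two-sided, Benjamini-Hochberg), of which 233 (1.37%) were higher and 103 (0.605%) lower in hybrids. The remaining 5626 (33.0%) were neither called nor kept. An unadjusted p under 0.05 was found for 2193 loci. The kept share was 58.0% at a mean of 1 to 5 RPKM and 70.0% at 100 RPKM or more, so weakly expressed loci were resolved less often.

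**Figure D1:**
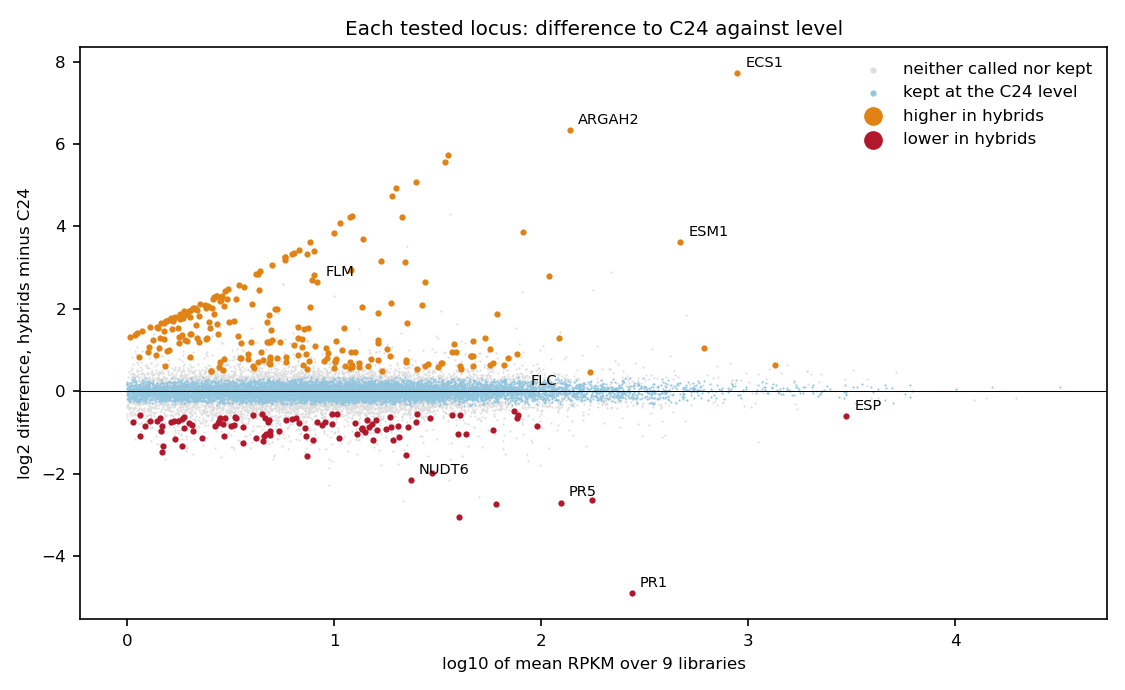
Each point is 1 of 17028 tested loci. The x axis is log10 of the mean RPKM over the 9 libraries and the y axis is the log2 difference of hybrids minus C24 on the log2(RPKM + 1) scale. Orange points (233) were higher and red points (103) lower in hybrids, and the upper sloping edge is formed by loci near 0 RPKM in C24. PR1 lies lowest at -4.90 and ECS1 highest at 7.72.

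All 233 higher loci and all 103 lower loci had the same sign in 6 of 6 hybrid libraries set against C24 of the same time. The calls rest on these same libraries, and each C24 library serves both crosses, so the common sign is no separate support. The higher loci had a median difference of 1.35 on the log2(RPKM + 1) scale, with 155 of them above 2-fold, and 62 were at most 0.1 RPKM in every C24 library. The lower loci had a median of -0.84, with 31 beyond 2-fold, and 0 of them were at most 0.1 RPKM in every hybrid library. The 62 passed the filter on mean RPKM only through the hybrid libraries. That mean holds more hybrid than C24 libraries, so the 62 and the 0 are not a balanced comparison. The counts depended on single libraries. They were 126 and 18 without C24 at ZT15, and 468 (2.75%) and 742 (4.36%) without C24xCol at ZT6. All other single libraries gave 149 to 225 higher and 24 to 86 lower when left out.

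Among 30 functional lists with 481 tested loci, the photosystem and electron transport list had the highest kept share. Of its 31 genes 30 were kept, against 65.0% of all loci, with a median difference of 0.03 beside -0.02 over all loci. Of 21 chlorophyll biosynthesis genes 19 were kept, of 16 starch synthesis genes 13, of 13 ethylene genes 11, and of 11 housekeeping genes 9. With any 1 library left out, these kept counts ran from 24 to 31 for photosystems, 8 to 19 for chlorophyll, 9 to 14 for starch synthesis, 5 to 11 for ethylene and 8 to 10 for housekeeping. For chlorophyll the count was 8 without C24 at ZT6 and 10 without C24 at ZT0, and for ethylene it was 5 without C24 at ZT15. At the other end, 0 of 10 salicylic acid output genes and 0 of 9 defence WRKY genes were kept. These counts describe the lists, and no list was tested as a whole.

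**Figure D2:**
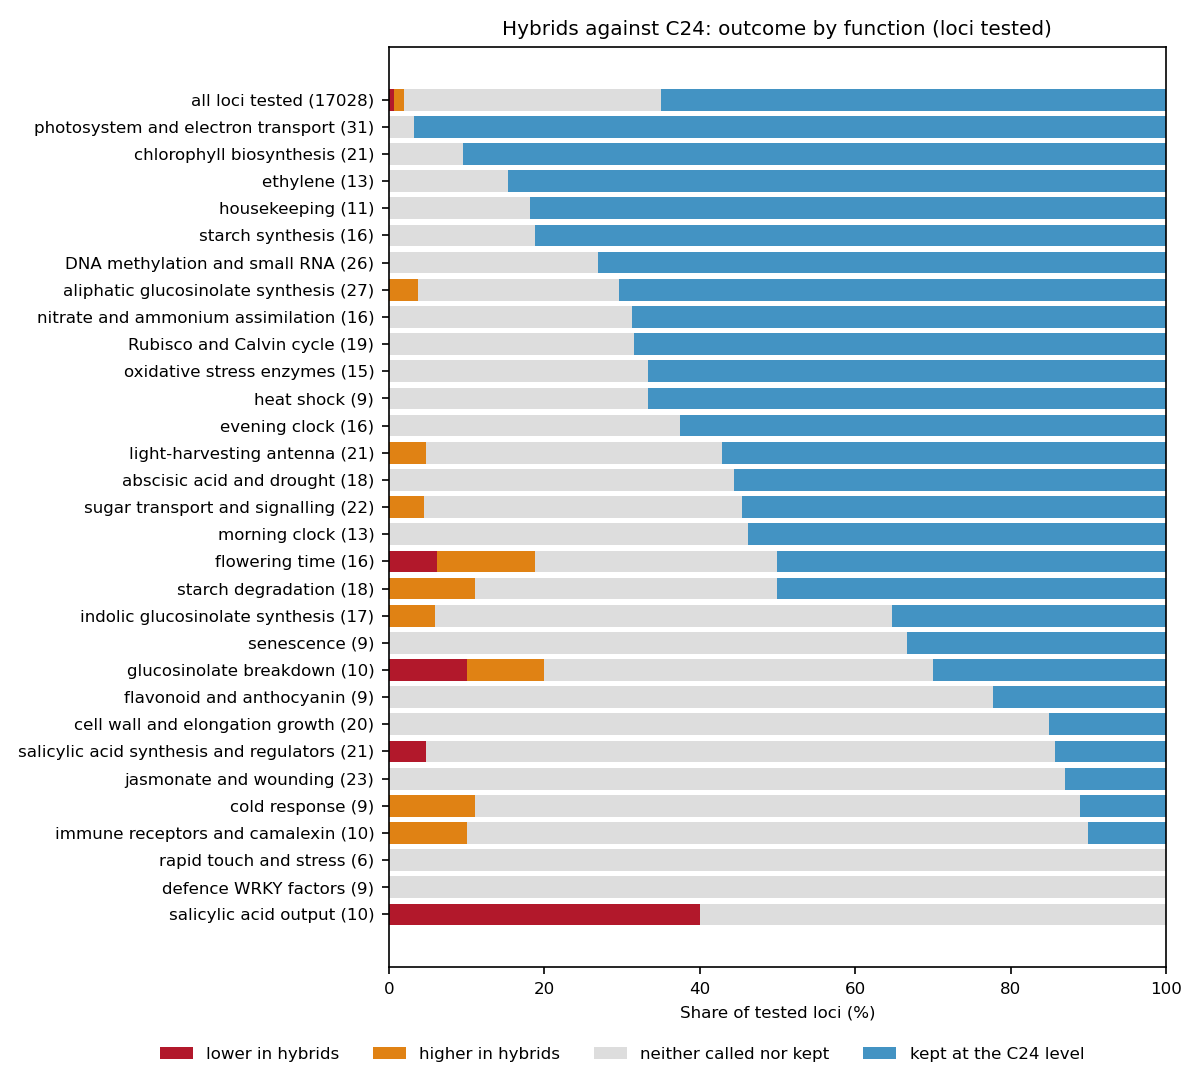
Horizontal bars give, for each functional list and for all loci tested, the share of tested loci (x axis, %) that were lower in hybrids, higher in hybrids, neither called nor kept, or kept at the C24 level. The number of tested loci stands in brackets. Photosystem and electron transport genes were kept in 30 of 31 cases, and 4 of 10 salicylic acid output genes were lower.

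Salicylic acid output genes were the list with the highest share of lower calls. Of 10 output genes, 4 were lower in hybrids and 0 higher, where 0.605% of all loci were lower, and all 10 had a negative difference (median -1.15). PR1, a secreted pathogenesis-related protein and the standard marker of salicylic acid responses, had 32.5, 3.48 and 54.6 RPKM in ColxC24 and 24.8, 3.08 and 35.3 RPKM in C24xCol, against 1019, 125 and 1158 RPKM in C24 and 7.92, 0.0501 and 0.885 RPKM in Col. Every hybrid library lay below every C24 library and above the Col library of its time. The log2 difference to C24 was -4.90 (SE 0.16, adjusted p = 2.6e-06), and that to Col was 2.77 (adjusted p = 0.011).

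PR2, a beta-1,3-glucanase, had 23.4, 6.72 and 31.2 RPKM in ColxC24 and 32.0, 3.79 and 36.4 RPKM in C24xCol, against 125, 61.6 and 225 RPKM in C24 and 14.9, 7.63 and 18.8 RPKM in Col. PR5, a thaumatin-like protein, had 30.4, 23.1 and 73.4 RPKM in ColxC24 and 35.2, 16.8 and 81.0 RPKM in C24xCol, against 257, 121 and 477 RPKM in C24 and 12.8, 74.6 and 57.2 RPKM in Col. For both genes all 6 hybrid libraries lay below all 3 C24 libraries. The differences to C24 were -2.74 for PR2 (SE 0.24, adjusted p = 6.4e-04) and -2.70 for PR5 (SE 0.13, adjusted p = 2.5e-05). Neither was called against Col (adjusted p = 0.41 for PR2 and 0.96 for PR5). With C24xCol as the only hybrid, PR2 was no longer called (adjusted p = 0.068).

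NUDT6, a Nudix hydrolase that acts on NADH, had 14.6, 3.48 and 10.0 RPKM in ColxC24 and 20.4, 3.79 and 8.91 RPKM in C24xCol, against 88.2, 19.2 and 42.1 RPKM in C24 and 1.91, 0.756 and 3.99 RPKM in Col. It was called lower than C24 (log2 difference -2.15, SE 0.13, adjusted p = 5.8e-05) and higher than Col (1.71, adjusted p = 0.0089), so it lay between the parents in all 6 hybrid libraries. PAD4, a lipase-like partner of EDS1 upstream of salicylic acid, had 16.6, 4.64 and 12.7 RPKM in ColxC24 and 26.1, 5.21 and 11.4 RPKM in C24xCol, against 73.4, 13.8 and 36.5 RPKM in C24 and 18.4, 5.01 and 8.26 RPKM in Col. It was the 1 of 21 synthesis and regulator genes called (log2 difference -1.54, SE 0.16, adjusted p = 0.0015), and against Col it was kept (0.21). Without ZT15 the PAD4 call was lost (adjusted p = 0.080). All calls of this pathway were also lost when the fit had no time term (adjusted p = 0.086 for PR1 and 0.085 for PR5).

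**Figure D3:**
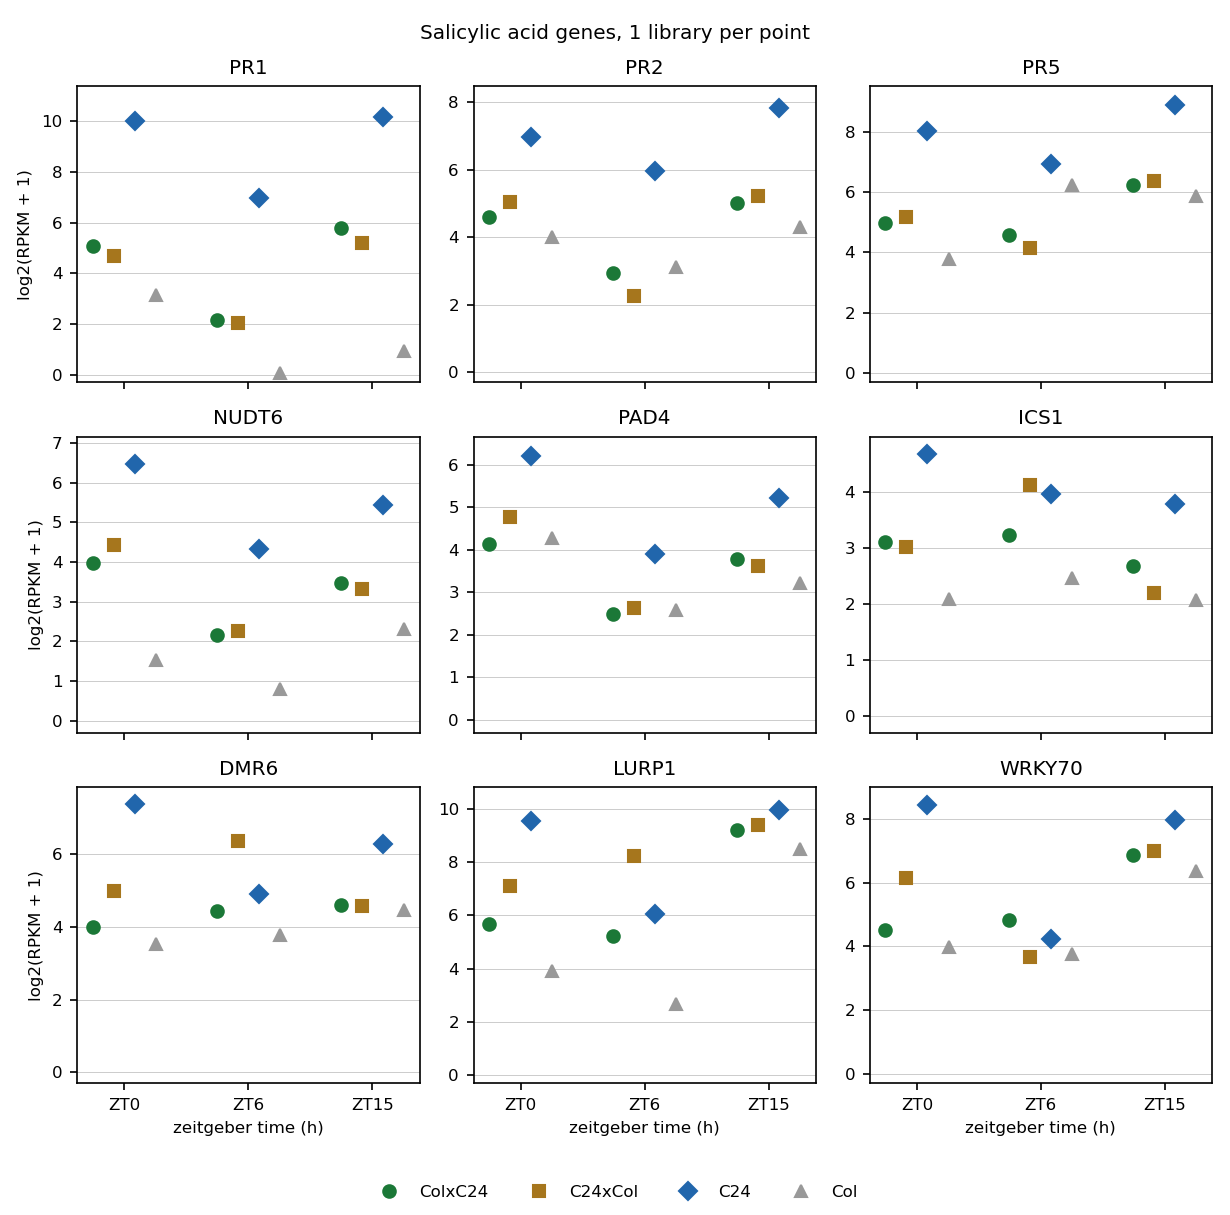
Each panel shows 1 gene of the salicylic acid pathway, with 1 point per library at ZT0, ZT6 and ZT15 (x axis, zeitgeber time in h) and log2(RPKM + 1) on the y axis. PR1, PR2, PR5, NUDT6 and PAD4 lay below C24 in both hybrids at each time, while ICS1, DMR6 and LURP1 of C24xCol, and WRKY70 of ColxC24, lay above C24 at ZT6.

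The number of pathway genes below C24 in both hybrids is given for each time as a description, since the test of time dependence called 0 loci. At ZT0 both hybrids were below C24 in 10 of 10 output genes, 9 of 9 WRKY genes, 20 of 21 synthesis and regulator genes and 8 of 10 immune receptor and camalexin genes. At ZT15 the counts were 9 of 10, 9 of 9, 17 of 21 and 9 of 10. At ZT6 they were 4 of 10, 0 of 9, 2 of 21 and 2 of 10. Over all 17028 loci, both hybrids were below C24 in 8696 at ZT0, 5128 at ZT6 and 5789 at ZT15.

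At ZT6 the list medians of the reciprocal hybrids lay on opposite sides of C24, although both hybrids were below C24 in 4 and above it in 3 of the 10 output genes. The median difference of the output genes was -1.05 in ColxC24 and 0.88 in C24xCol, and that of the WRKY genes was -0.37 in ColxC24 and 0.98 in C24xCol. The output medians at ZT0 were -3.00 for ColxC24 and -2.12 for C24xCol, and at ZT15 they were -1.40 and -1.74. The direction at ZT0 and ZT15 was the same with median-of-ratios scaling and quantile normalization (-2.43 and -2.47 at ZT0, -1.77 and -1.75 at ZT15). With 1 library per cross and time, cross and library cannot be told apart at ZT6.

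**Figure D4:**
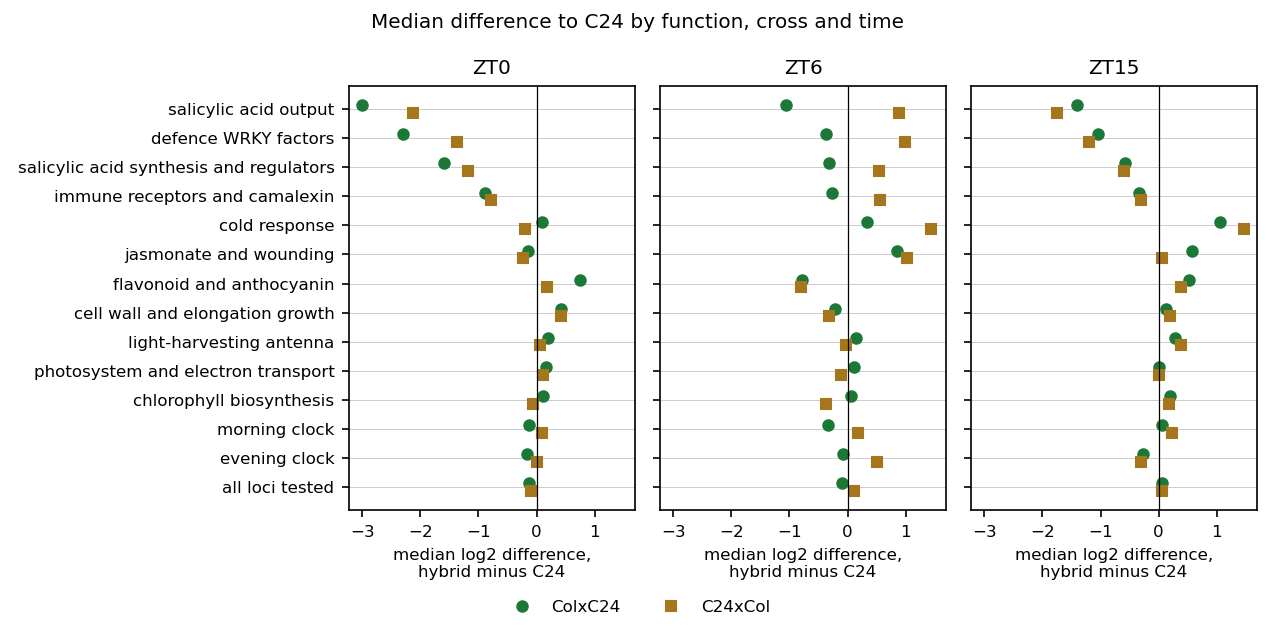
Points give the median log2 difference (x axis, hybrid minus C24 at the same time) of each functional list, for ColxC24 and C24xCol, with a panel for each time. Salicylic acid output at ZT0 was at -3.00 (ColxC24) and -2.12 (C24xCol), and at ZT6 at -1.05 and 0.88, while the photosystem list stayed between -0.12 and 0.16.

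Of the individual genes, ICS1, the isochorismate synthase that makes the salicylic acid precursor, had 7.63, 8.35 and 5.36 RPKM in ColxC24 and 7.06, 16.5 and 3.55 RPKM in C24xCol, against 24.5, 14.6 and 12.8 RPKM in C24 and 3.23, 4.48 and 3.22 RPKM in Col. It was below C24 in 5 of 6 libraries, the exception being C24xCol at ZT6, and was not called (log2 difference -1.09, SE 0.28, adjusted p = 0.13). Without ZT6 it was called (-1.49, adjusted p = 0.0035), as it was without C24xCol at ZT6 (adjusted p = 0.0052), without C24 at ZT6 (adjusted p = 0.043) or with ColxC24 as the only hybrid (adjusted p = 0.031).

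Other genes of these lists, DMR6, LURP1 and WRKY70, were chosen after their values were seen. DMR6, an oxygenase that hydroxylates salicylic acid, had 14.8, 20.7 and 23.4 RPKM in ColxC24 and 30.9, 80.9 and 22.9 RPKM in C24xCol, against 165, 28.9 and 76.8 RPKM in C24 (log2 difference -1.36, SE 0.62, adjusted p = 0.42). LURP1, a gene induced late in defence against an oomycete, had 49.8, 36.6 and 582 RPKM in ColxC24 and 135, 301 and 662 RPKM in C24xCol, against 753, 66.2 and 982 RPKM in C24 (-1.06, SE 0.81, adjusted p = 0.64). WRKY70, a transcription factor that links salicylic acid and jasmonate signalling, had 21.7, 27.2 and 116 RPKM in ColxC24 and 69.1, 11.7 and 125 RPKM in C24xCol, against 343, 17.59 and 250 RPKM in C24 (-1.38, SE 0.58, adjusted p = 0.37). All were below C24 in both hybrids at ZT0 and ZT15. At ZT6, DMR6 and LURP1 stood above C24 in C24xCol, and WRKY70 in ColxC24.

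Without ZT6, where 6.75% of all loci were called, 3.99% lower and 2.76% higher, 10 of 21 synthesis and regulator genes, 7 of 10 output genes, 5 of 9 WRKY genes and 3 of 10 immune receptor and camalexin genes were lower in hybrids. In these lists 1 gene was then higher, RPM1. Without C24xCol at ZT6 alone, the lower counts were 9, 5, 3 and 4 in the same order of lists. Genes added to the calls included DLO1, which also hydroxylates salicylic acid (log2 difference -2.88, adjusted p = 3.3e-04), PBS3, which conjugates isochorismate to glutamate (-1.72, adjusted p = 0.0056), and WRKY60 (-1.90, adjusted p = 0.0080). The transcription factor SARD1, an activator of ICS1, was at -1.70 (adjusted p = 0.032), and its relative CBP60G at -1.30 (adjusted p = 0.038). ZT6 was the time at which the fewest genes of these lists lay below C24 in both hybrids. Over all loci, 103 were lower with every time included, 17 without ZT0 and 6 without ZT15. Counts of these lists without ZT0 or without ZT15 are not given.

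Among signalling genes of the pathway, some were kept. TGA2 and TGA6, which are among the bZIP factors through which NPR1 acts, were kept (log2 differences -0.17 and -0.02). Both were kept without ZT6 too. In that setting TGA3 (-0.49, adjusted p = 0.071) and TGA5 (-0.70, adjusted p = 0.11) were neither called nor kept. NPR1, the salicylic acid receptor and coactivator, had 8.93, 9.43 and 17.1 RPKM in ColxC24 and 13.5, 18.5 and 18.6 RPKM in C24xCol, against 25.4, 9.07 and 26.0 RPKM in C24, and was neither called nor kept (-0.38, adjusted p = 0.66). It lay below C24 in both hybrids at ZT0 and ZT15, and without ZT6 the difference was -0.83 (adjusted p = 0.056). FLS2, the flagellin receptor, was kept (-0.23), as the 1 kept gene of the immune receptor and camalexin list. It was not kept without C24 at ZT15, or with 0.1 or 0.5 in place of 1 added to RPKM before the log. RPM1, an intracellular receptor for Pseudomonas effectors, went the other way: it had 2.15, 1.51 and 2.78 RPKM in ColxC24 and 2.51, 2.44 and 2.93 RPKM in C24xCol, against 0, 0 and 0.0132 RPKM in C24 and 5.66, 3.22 and 5.61 RPKM in Col. It was called higher than C24 (1.74, SE 0.14, adjusted p = 3.9e-04) and lower than Col (-0.77, adjusted p = 0.015). With C24 at or near 0, RPM1 passed the filter on mean RPKM only through the hybrid libraries. Whether C24 reads of RPM1 were lost against the Col-derived build was not tested.

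Other genes far below C24 were not in the lists. CAX3, a vacuolar cation/proton exchanger, had 36.6, 1.105 and 2.65 RPKM in ColxC24 and 37.0, 5.60 and 4.92 RPKM in C24xCol, against 188, 44.3 and 41.9 RPKM in C24 (log2 difference -3.05, SE 0.37, adjusted p = 0.0045). The CAX3 call was lost without C24 at ZT15 (adjusted p = 0.062) and without ZT15 (adjusted p = 0.13). The locus AT5G55450 had 46.4, 10.8 and 141 RPKM in ColxC24 and 59.5, 15.2 and 160 RPKM in C24xCol, against 339, 111 and 707 RPKM in C24 (-2.64, SE 0.17, adjusted p = 1.2e-04). HR3, a homologue of the powdery mildew resistance protein RPW8, was lower by the test (-1.98, SE 0.28, adjusted p = 0.0099), but not without C24 at ZT0 (adjusted p = 0.072) or without C24 at ZT15 (adjusted p = 0.083). ATPMEPCRB, a pectin methylesterase, completed the 8 lowest (-1.57, SE 0.14, adjusted p = 5.9e-04), and its call was lost in the fit of all 12 libraries (adjusted p = 0.16).

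The loci highest above C24 had little signal in C24. ECS1 had 843, 380 and 2125 RPKM in ColxC24 and 816, 1651 and 2119 RPKM in C24xCol, against 7.35, 0.525 and 10.7 RPKM in C24 and 1157, 631 and 3515 RPKM in Col. Its log2 difference to C24 was 7.72 (SE 0.51, adjusted p = 1.2e-04), and it was not called against Col (-0.29, adjusted p = 0.69). ARGAH2, an arginase, had 22.0, 444 and 70.2 RPKM in ColxC24 and 20.8, 648 and 31.8 RPKM in C24xCol, against 0, 0 and 0.0993 RPKM in C24 and 60.0, 1415 and 315 RPKM in Col. It was called higher than C24 (6.34, SE 0.73, adjusted p = 0.0031) and lower than Col (-1.85, adjusted p = 0.011), although the first call was lost without ZT15 (adjusted p = 0.067) and with C24xCol as the only hybrid (adjusted p = 0.13).

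The other 6 of the 8 highest were near or at 0 in C24, so they passed the filter on mean RPKM only through the hybrid libraries. SADHU1-1, a non-coding retroposon, had 68.7, 24.9 and 44.3 RPKM in ColxC24 and 81.9, 38.9 and 50.7 RPKM in C24xCol, against 0, 0.0387 and 0.0770 RPKM in C24 and 187, 77.6 and 82.1 RPKM in Col (log2 difference to C24 5.56, SE 0.24, adjusted p = 1.1e-05; to Col -1.13, adjusted p = 0.0080). AT4G34881 and AT5G24735 are listed at 0 in all 3 C24 libraries and were at 18.6 to 70.7 and 12.3 to 52.4 RPKM in the 6 hybrid libraries. The chromosome 1 loci AT1G24825, AT1G25098 and AT1G24996 were called higher as well (5.72, 4.93 and 4.25). Loss of C24 reads against the Col-derived build was not tested. Values of loci with near-identical copies, here and in the antenna and Rubisco families, are uncertain, because the counting of shared reads is not given.

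Among flowering regulators, FLC kept the C24 level, while FLM and MAF4 lay between the parents. FLC had 83.6, 60.0 and 83.6 RPKM in ColxC24 and 91.6, 72.9 and 88.5 RPKM in C24xCol, against 94.0, 53.8 and 99.3 RPKM in C24 and 0.139, 0 and 0.0895 RPKM in Col. The hybrid and C24 ranges overlapped, the difference was -0.01 (95% interval -0.29 to 0.28), and FLC was kept at the C24 level, 6.22 above Col (adjusted p = 4.2e-08). FT, the mobile flowering signal that FLC represses, was at most 0.433 RPKM in the hybrids and 0.331 in C24, under the filter of 1 RPKM, against 4.39, 1.69 and 18.4 RPKM in Col. SOC1, another flowering activator, had 1.38, 2.85 and 1.11 RPKM in ColxC24 and 2.27, 12.4 and 1.99 RPKM in C24xCol, against 6.70, 5.02 and 1.44 RPKM in C24 and 28.9, 37.7 and 17.64 RPKM in Col, and was neither called nor kept (-0.39, adjusted p = 0.77).

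FLM, a relative of FLC that represses flowering with SVP, had 13.2, 9.57 and 10.3 RPKM in ColxC24 and 13.3, 13.2 and 11.5 RPKM in C24xCol, against 1.69, 0.934 and 0.612 RPKM in C24 and 26.9, 19.6 and 18.3 RPKM in Col. All hybrid libraries lay above all C24 libraries and below all Col libraries. The difference to C24 was 2.65 (SE 0.14, adjusted p = 2.7e-05) and that to Col -0.81 (adjusted p = 0.0077). MAF4, of the same family, lay between the parents in the other direction, with 2.38, 2.05 and 2.57 RPKM in ColxC24 and 3.28, 1.66 and 1.88 RPKM in C24xCol, against 6.39, 4.49 and 3.87 RPKM in C24 and 0.806, 0.381 and 0.294 RPKM in Col (-0.84, SE 0.14, adjusted p = 0.023). MAF2 was higher by 0.58 (SE 0.11, adjusted p = 0.035). In all, 2 of 16 tested flowering genes were higher, 1 lower and 8 (50%) kept, SVP, MAF3 and FRI among the kept. Over all loci, 1.37% were higher, 0.605% lower and 65.0% kept. The MAF4 call was lost without C24 at ZT0 (adjusted p = 0.14), at ZT6 (0.097) or at ZT15 (0.067). The MAF2 call was lost in each of those cases too (adjusted p = 0.085, 0.11 and 0.20), and without any hybrid library except C24xCol at ZT6 (0.060 to 0.11). MAF4 was also lost without either hybrid library of ZT0 (0.053 and 0.052) and without C24xCol at ZT15 (0.084). The kept count was 5 without C24 at ZT15.

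Of 27 tested aliphatic glucosinolate synthesis genes 19 (70.4%) were kept, against 65.0% of all loci, 1 was higher and 0 were lower (median 0.03). The medians at ZT0, ZT6 and ZT15 were -0.25, 0.19 and 0.19, beside -0.11, 0.01 and 0.06 over all loci. With 1 library left out, the kept count ran from 13 without C24 at ZT6 to 20. CYP83A1, which oxidises aldoximes, and MAM1, of side chain elongation, were kept (0.11 and 0.04) and lay above Col (0.63, adjusted p = 0.042, and 0.62, adjusted p = 0.044). FMOGS-OX3, which S-oxygenates the side chain, had 25.3, 60.4 and 51.6 RPKM in ColxC24 and 20.6, 70.8 and 52.3 RPKM in C24xCol, against 14.7, 28.9 and 15.4 RPKM in C24 (1.15, SE 0.19, adjusted p = 0.021). Its call was lost without C24 at ZT6 (adjusted p = 0.082) or at ZT15 (adjusted p = 0.10), and without 3 of the hybrid libraries (ColxC24 at ZT0, 0.059, and both crosses at ZT15, 0.069 each). MAM3, which makes long side chains, had 56.7, 42.4 and 64.8 RPKM in ColxC24 and 61.0, 102 and 70.9 RPKM in C24xCol, against 102, 97.0 and 129 RPKM in C24 and 0.795, 3.58 and 0.208 RPKM in Col. MAM3 was not called (-0.75, SE 0.24, adjusted p = 0.22), but it was called without C24xCol at ZT6 (adjusted p = 0.0018).

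ESP, which directs breakdown to nitriles, had 1581, 3259 and 3031 RPKM in ColxC24 and 1643, 2842 and 2675 RPKM in C24xCol, against 2295, 4905 and 4430 RPKM in C24 and 19.3, 55.2 and 115 RPKM in Col. ESM1, which favours isothiocyanates, had 358, 868 and 1065 RPKM in ColxC24 and 273, 382 and 1090 RPKM in C24xCol, against 15.1, 72.9 and 86.5 RPKM in C24 and 446, 935 and 1535 RPKM in Col. ESM1 was called higher than C24 (3.63, SE 0.30, adjusted p = 4.3e-04) and was not called against Col (-0.57, adjusted p = 0.15). ESP was lower than C24 (-0.61, SE 0.10, adjusted p = 0.022) and higher than Col (5.56, adjusted p = 2.0e-05). Under median-of-ratios scaling the ESP call against C24 was lost (adjusted p = 0.11), as it was without any 1 of the C24 libraries (0.084, 0.11 and 0.12 without ZT0, ZT6 and ZT15) and without either hybrid library of ZT0 or ZT15 (0.058 to 0.096). TGG1, the myrosinase that starts breakdown, was kept (-0.07). Of 17 indolic genes 6 (35.3%) were kept and MYB34, an activator of indolic synthesis, was higher (0.91, SE 0.16, adjusted p = 0.025), a call lost without C24 at ZT0 (adjusted p = 0.14) or at ZT15 (0.17) and without either hybrid library of those times (0.073 to 0.090).

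**Figure D5:**
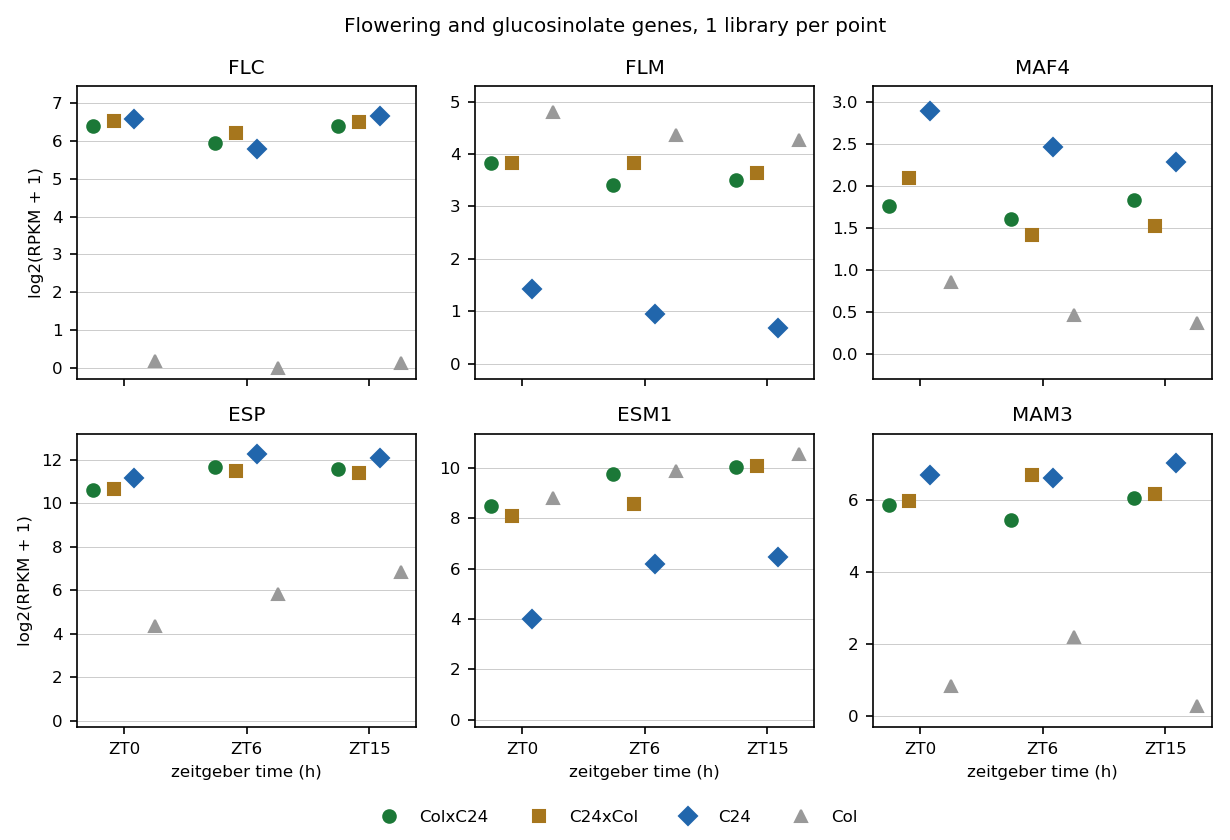
Each panel shows 1 gene, with 1 point per library at ZT0, ZT6 and ZT15 (x axis, zeitgeber time in h) and log2(RPKM + 1) on the y axis. FLC of the hybrids lay at the C24 level (difference -0.01), FLM and ESM1 lay above C24 (2.65 and 3.63), and MAF4 and ESP lay below it (-0.84 and -0.61).

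Among the light-harvesting antenna genes 12 of 21 (57.1%) were kept at the C24 level, against 65.0% of all loci. LHCB1.3, a chlorophyll-binding protein of the main antenna of photosystem II, had 10882, 23580 and 11138 RPKM in ColxC24 and 12540, 20783 and 12168 RPKM in C24xCol, against 9471, 23584 and 10938 RPKM in C24 and 7770, 14158 and 7929 RPKM in Col. It was kept (0.10) and was above Col (0.60, adjusted p = 0.0093). LHCB6, a minor antenna protein, was also kept (-0.14) and above Col (0.63, adjusted p = 0.020). Of the 21 antenna genes 1, LHCB2.1, was higher (0.64, SE 0.12, adjusted p = 0.033), but under median-of-ratios scaling (adjusted p = 0.064) and quantile normalization (0.080) the LHCB2.1 call was lost, as it was without any 1 of the C24 libraries (0.19, 0.12 and 0.077 without ZT0, ZT6 and ZT15). It was also lost without ColxC24 at ZT0 or ZT6 and without C24xCol at ZT0 or ZT15 (0.070 to 0.13). Against Col, 10 of these 21 genes were higher and 6 kept, where 9.83% of 17155 loci were called, 1.88% higher and 7.95% lower, and 57.2% kept. The kept count against C24 was 7 without C24 at ZT6, and without any single library other than ColxC24 at ZT15 or C24xCol at ZT6 the higher count was 0.

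Rubisco and Calvin cycle genes were kept in 13 of 19 cases (68.4%, near the share of all loci). With 1 library left out, this count ran from 10 without C24 at ZT6 to 18 without C24xCol at ZT6. RBCS1A, the small subunit of Rubisco, had 36762, 34931 and 35136 RPKM in ColxC24 and 35258, 22088 and 34090 RPKM in C24xCol, against 30619, 28228 and 31887 RPKM in C24. RBCS1A and RCA, the Rubisco activase, were kept (0.11 and 0.06). Starch degradation had 2 of 18 genes higher, where 1.37% of all loci were, and 9 kept. They were MEX1, the maltose exporter of the chloroplast (0.54, SE 0.10, adjusted p = 0.031), and LDA, a debranching enzyme (0.49, SE 0.09, adjusted p = 0.033). MEX1 had 23.8, 22.7 and 37.3 RPKM in ColxC24 and 23.2, 22.1 and 38.7 RPKM in C24xCol, against 17.9, 13.4 and 25.9 RPKM in C24 and 24.8, 22.2 and 39.5 RPKM in Col. Both calls were lost without any 1 of the libraries (adjusted p from 0.061 to 0.17), except that they held without C24xCol at ZT6. Without C24 at ZT15, 4 genes of the starch degradation list were kept, and without C24xCol at ZT6, 12. SWEET17, a fructose transporter, was the 1 of 22 sugar genes called (0.96, SE 0.16, adjusted p = 0.025), and its call was lost without C24 at ZT0 (adjusted p = 0.12) or ZT15 (0.15), ColxC24 at ZT0 (0.063), or C24xCol at ZT0 (0.078) or ZT15 (0.076).

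No clock gene was called, where 1.97% of all loci were. Of 13 morning genes 7 (53.8%) were kept and of 16 evening genes 10 (62.5%), against 65.0% of all loci. Leaving out C24 at ZT6 lowered these counts to 4 and 1, and leaving out C24xCol at ZT6 raised them to 10 and 13. The evening count was 4 without C24 at ZT0 and 6 without C24 at ZT15. With 0.1 in place of 1 added to RPKM before the log, the kept counts were 6 morning and 4 evening genes. No single library left out gave a clock call. LHY, a MYB repressor of the morning loop, had 444, 6.34 and 1.24 RPKM in ColxC24 and 489, 8.60 and 1.45 RPKM in C24xCol, against 459, 8.33 and 0.880 RPKM in C24. Its partner CCA1 had 188, 21.9 and 0.590 RPKM in ColxC24 and 233, 39.5 and 0.690 RPKM in C24xCol, against 198, 34.7 and 0.562 RPKM in C24. Both were kept (0.06 and -0.03). TOC1, the evening repressor of CCA1 and LHY, was at -0.31 (95% interval -0.86 to 0.24) and GI, which stabilises ZTL in light, at 0.19 (-0.26 to 0.63), so neither was resolved.

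Other functions were mostly kept or unresolved. Over all loci, 65.0% were kept, 1.37% higher and 0.605% lower, so 0 called in a list of this size lies near the general share. DNA methylation and small RNA genes were kept in 19 of 26 cases (15 to 22 with 1 library left out) with 0 called (median -0.06), AGO1, the main slicer of small RNA pathways, among them (-0.04). Abscisic acid and drought had 10 of 18 kept, nitrate and ammonium assimilation 11 of 16, oxidative stress enzymes 10 of 15, heat shock 6 of 9 and senescence 3 of 9, each with 0 called. Cold response had 1 of 9 tested genes higher: COR414-TM1, a cold-regulated chloroplast membrane protein, had 6.49, 14.0 and 29.3 RPKM in ColxC24 and 10.0, 24.04 and 48.2 RPKM in C24xCol, against 3.10, 2.103 and 9.17 RPKM in C24 (1.90, SE 0.31, adjusted p = 0.019). The COR414-TM1 call was lost without C24 at ZT6 (adjusted p = 0.079) or at ZT15 (adjusted p = 0.14), and without C24xCol at ZT0 (0.064) or at ZT15 (0.059). Cell wall and elongation growth had 3 of 20 kept and 0 called, jasmonate and wounding 3 of 23 kept and 0 called, flavonoids and anthocyanins 2 of 9 kept and 0 called, and rapid touch and stress genes 0 of 6 kept and 0 called.

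With 1 library left out, the kept counts ran from 1 to 13 for abscisic acid, 4 to 10 for nitrate, 4 to 11 for oxidative stress, 3 to 6 for heat shock and 1 to 4 for jasmonate, with the lowest counts without C24 at ZT0, ZT15, ZT0, ZT6 and ZT6 (for jasmonate also without C24 at ZT15). In the jasmonate list 1 gene was higher without C24xCol at ZT6 or at ZT15. Without C24xCol at ZT6, where 4.36% of all loci were lower, 4 of 6 touch genes and 2 of 9 senescence genes were lower. In that setting 1 of 9 heat shock, 1 of 16 nitrate and 2 of 22 sugar genes were also lower. Higher were 2 of 9 cold-response and 2 of 21 antenna genes, beside 2.75% of all loci.

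Whether the difference to C24 changed over the day was tested with an F test on the spread between the reciprocal hybrids at each time. With limma 0 of 17028 loci were called, while 1090 (6.40%) had an unadjusted p under 0.05. Without the ColxC24 library of ZT6, 779 were called, and without any filter on low values 64. The single-time values above therefore stand as descriptions. As bulk RNA was sequenced, fewer cells of a type and less RNA per cell cannot be told apart.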

How the data were processed

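Total RNA of mature rosette leaves was made into mRNA libraries and sequenced with reads of 84 bp, per the labels. The authors deposited RPKM values for 38710 gene models per library, per the file headers; the genome build was TAIR9, per the submitters' processing notes. Which aligner and counting tool were used, and how reads matching several places were treated, is not given in the sources used here. Models were summed to 32592 loci, and 31786 of them matched the TAIR10.1 annotation. It gave names, and the exon lengths used in the depth estimate. Because the releases differ, no positions are given. A planned description of promoter motifs was not made and no sequences are given, because no promoter or protein sequences were available. Count models were not applied, as RPKM are not counts. Depth was estimated from the steps between low values: 34.3 to 39.2% of values under 3.5 reads lay within 1% of a whole read, and 1 read limits the precision of low values.

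Testing covered loci that averaged 1 RPKM or more over the 9 libraries. It used log2(RPKM + 1) in limma 3.58.1 (R 4.3.3; eBayes, trend, two-sided), and p-values were adjusted across loci after Benjamini and Hochberg (threshold 0.05). The terms were time and hybrid against C24, with 5 residual degrees of freedom. A difference on this scale understates the change of weakly expressed loci. Hybrids minus Col were fitted likewise over 17155 loci, for values side by side only, because both comparisons share the hybrid libraries. The time test had 3 residual degrees of freedom and assumed that the single C24 library varies like the hybrids. Scripts were tested on simulated data. Nothing in the labels gives a batch, or says that libraries came from separate plants or pools.

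Of 549 list loci 548 were analysed and 481 tested. The members and lists were chosen with earlier results of these data known. Named genes were the 8 called loci furthest above and below C24 with the same sign in 6 libraries and a mean of at least 3 RPKM, up to 3 called members per list and direction, up to 2 kept members per list, and a fixed set around PR1, FLC, clock and glucosinolate genes. Genes named outside this rule were chosen after their values were seen: DMR6, LURP1, WRKY70, NPR1, TGA3, TGA5, SOC1, MAF3, FRI, DLO1, PBS3, WRKY60, SARD1, CBP60G and those of the closing section.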

Additional observations from a re-analysis of the deposited data

Results flagged for a closer look

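Flavonoid and anthocyanin genes stood on opposite sides of C24 at ZT6 and ZT15. The median difference of hybrids minus C24 over 9 tested genes was -0.75 at ZT6 and 0.42 at ZT15, and both reciprocal hybrids had that sign at each time (-0.78 in ColxC24 and -0.80 in C24xCol at ZT6, 0.52 and 0.39 at ZT15). At ZT0 the median was 0.59. CHS, the first enzyme of flavonoid synthesis, had 521, 204 and 567 RPKM in ColxC24 and 317, 195 and 577 RPKM in C24xCol at ZT0, ZT6 and ZT15, against 201, 376 and 318 RPKM in C24. The difference between times was not tested for the list as a whole, and for the individual loci the limma F test called 0 of 17028.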

How the results depend on the processing

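No called difference of a named gene changed sign in any alternative. No paired analysis was possible because the labels give no replicate numbers; matching by time is already a term of the fit. Against C24 (233 higher, 103 lower, 11066 kept), a mean of at least 5 RPKM gave 105 higher and 44 lower, leaving out ZT0 121 and 17, ZT6 470 and 680, ZT15 84 and 6 (6367 kept), and a fit without time 125 and 13 (6212 kept). ColxC24 alone gave 218 lower, C24xCol alone 76 higher, 9 lower and 7372 kept, and no filter 18465 kept. With 0.1 in place of 1 added to RPKM before the log, 9058 were kept, among them 6 abscisic acid and 7 sugar genes. Leaving out 1 library at a time gave 126 to 468 higher, 18 to 742 lower, 8288 to 11791 kept and 0 to 779 with a difference that depended on time; the last count was 64 without a filter and 1 with the first gene model. Against Col (323 higher, 1363 lower), median-of-ratios scaling gave 461 higher and 658 lower and quantile normalization 451 and 579, so that balance depended on the scaling. A mean of at least 5 RPKM gave 193 higher than Col, and leaving out ZT0 73 higher and 136 lower, and ZT15 60 and 32. The cause was not tested. Of 2130 results for named genes under alternatives, 1980 kept their side of the threshold, 142 lost it and 8 gained it. The median of all loci at ZT0 was -0.11, and 0.01 with median-of-ratios scaling.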

Other observations

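Of 23 tested jasmonate genes limma called 0. Both hybrids were above C24 in 7 of them at ZT0, 17 at ZT6 and 13 at ZT15, where the counts over all 17028 loci were 4369, 4889 and 8645, and the list medians were -0.21, 0.95 and 0.36 at ZT0, ZT6 and ZT15. AOS, the allene oxide synthase of jasmonate synthesis, had 57.4, 618 and 332 RPKM in ColxC24 and 42.0, 783 and 240 RPKM in C24xCol, against 49.1, 217 and 218 RPKM in C24. LOX2, a lipoxygenase of the same pathway, had 354, 2143 and 3553 RPKM in ColxC24 and 187, 2139 and 2354 RPKM in C24xCol, against 273, 738 and 2120 RPKM in C24. VSP2, a storage protein induced by jasmonate, had 1.42, 1286 and 124 RPKM in ColxC24 and 0.635, 503 and 8.41 RPKM in C24xCol, against 0.268, 35.0 and 1.86 RPKM in C24. None of the 3 was called (adjusted p = 0.38 for AOS, 0.46 for LOX2 and 0.21 for VSP2).

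At ZT15 both hybrids were above C24 in 9 of 9 tested cold-response genes, beside 8645 of 17028 loci, and 1 of the 9 was called (list medians 0.03, 0.66 and 1.26 at ZT0, ZT6 and ZT15). COR15A, a chloroplast protein induced by cold, had 4.52, 60.1 and 49.2 RPKM in ColxC24 and 3.33, 123 and 71.5 RPKM in C24xCol, against 2.07, 31.1 and 7.84 RPKM in C24 and 3.85, 1768 and 76.0 RPKM in Col. It was above C24 in 6 of 6 libraries and missed the threshold (1.63, SE 0.38, adjusted p = 0.089), which it met without C24xCol at ZT6 (adjusted p = 0.0497). Rapid touch and stress genes had a negative difference in 6 of 6 tested genes (median -0.69), beside 9245 of 17028 loci, with 0 called by limma. Without C24xCol at ZT6, 4 of the 6 were lower, beside 4.36% of all loci. TCH4, a xyloglucan-modifying enzyme, had 15.7, 4.27 and 2.91 RPKM in ColxC24 and 6.66, 5.30 and 1.89 RPKM in C24xCol, against 6.70, 42.6 and 4.28 RPKM in C24 (-1.01, SE 0.55, adjusted p = 0.50). Starch synthesis genes had a positive difference in 16 of 16 cases, beside 7783 of 17028 loci, 13 of them kept (median 0.18). GBSS1, which makes amylose, was at 173, 42.5 and 8.99 RPKM in ColxC24 and 173, 83.8 and 9.59 RPKM in C24xCol, against 114, 31.7 and 4.31 RPKM in C24 (0.82, SE 0.20, adjusted p = 0.099).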
